A study of Gallus gallus with 5 samples.

Results

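The otic placode is a patch of thickened ectoderm beside the hindbrain that folds inwards to become the inner ear. It arises from otic-epibranchial progenitors (OEPs), a domain that also gives rise to the epibranchial placodes, the source of sensory neurons of cranial ganglia. Between these states the ectoderm is exposed to FGF and Wnt signals, becomes columnar and begins to bend, while regulators such as PAX2, SOX10, EYA1 and the HMX homeobox factors come to mark the otic cells.

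The libraries described here hold poly(A) RNA of otic ectoderm dissected from unmanipulated Bovans Brown chick embryos at 5-6 somites (5-6ss, OEPs) and at 11-12 somites (11-12ss, invaginating otic placode), with 1 library a stage made from pooled pieces of tissue. A library of the thickened placode at 8-9ss was used only to say when a change came, and the other libraries of the series, the posterior pre-placodal region at HH6 and the whole embryo at 3ss, entered none of the calls. Dissection followed the region known to express *PAX2*, and endoderm and mesoderm were removed with dispase. A locus was called higher or lower at 11-12ss when its count, normalized for library size, differed by more than 1.5-fold, provided that its larger value exceeded a normalized count of 300 and an RPKM (reads scaled by transcript length and library depth) of 4.

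By this rule 1280 of 18365 loci with counts were called, 667 higher and 613 lower at 11-12ss. They are 15.3% of the 8350 loci whose higher library passed both levels, with 7.99% higher and 7.34% lower, and these shares are the background for every count of list members below. The libraries held 26858887 counts at 5-6ss, 41478368 at 8-9ss and 35985313 at 11-12ss. Every fold change carries an exact binomial (Clopper-Pearson) 95% interval of its counts, which covers counting error only. Neither the spread between embryos nor PCR duplicates are part of it, and no p-value was computed because no stage has a replicate. A fold change in such bulk tissue cannot tell more RNA per cell from more cells of a type.

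**Figure D1:**
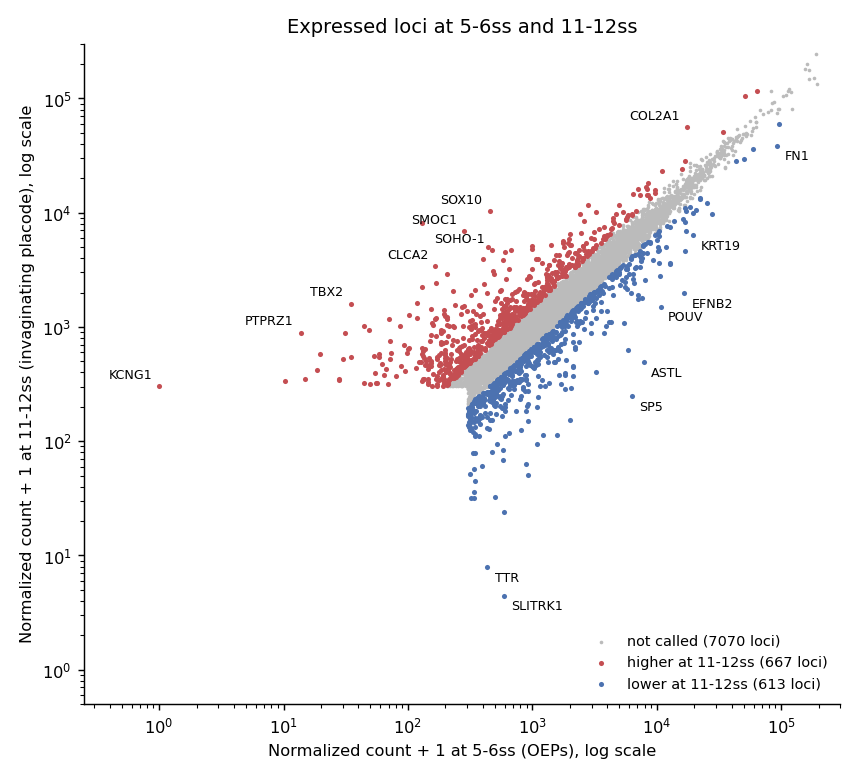
Normalized count plus 1 at 5-6ss (horizontal) and 11-12ss (vertical) for the 8350 expressed loci, both axes on a log scale, 1 library a stage. The 667 loci higher at 11-12ss (red) and the 613 lower (blue) flank the band of loci that were not called. Among the labelled genes, *KCNG1*, *PTPRZ1* and *TBX2* lie farthest above it and *SLITRK1* and *TTR* farthest below.

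Most changes were small. The median fold was 1.92 among the loci that rose and 1.80 among those that fell, and only 102 and 53 loci passed 4-fold, 30 and 14 passed 10-fold. The counting interval lay wholly past 1.5-fold at 496 of the 667 and 416 of the 613. Just inside the threshold stood *ATAD2B*, *RPL29* and *MICAL3* among the loci that rose and *CHTF18*, *TYSND1* and *KHDRBS2* among those that fell. *OPTN*, *SERPINE2* and *SPATS2L*, and in the other direction *CCDC61*, *MPI* and *ZNF22*, stood just outside. In all, 123 and 151 called loci lay between 1.5-fold and 1.6-fold. The loci that rose took 2.79% of all normalized counts at 5-6ss and 5.79% at 11-12ss, whereas the loci that fell went from 5.88% to 3.04%.

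The 15 named genes that rose most had no more than 453 normalized counts in OEPs, the value of *SOX10*, and they include genes of the extracellular matrix, of ion handling and of transcriptional control. *KCNG1* (XLOC_007706), a modulatory subunit of voltage-gated potassium channels, had no read at 5-6ss, 61 at 8-9ss and 353 at 11-12ss. It was at least 70.2-fold higher by the lower end of its 95% counting interval, and 86.8-fold higher against a floor of 3 counts at 5-6ss. *PTPRZ1* (XLOC_001316), a receptor tyrosine phosphatase of neural and glial cells, had normalized counts of 12.8 at 5-6ss, 108 at 8-9ss and 892 at 11-12ss, which is 69.6-fold (95% interval 38.8 to 139.9), or 27.5-fold in the deposited RPKM. *TBX2* (XLOC_005930), a T-box repressor of the otic vesicle, stood at 33.8 at 5-6ss, 76.8 at 8-9ss and 1603 at 11-12ss, 47.5-fold (95% interval 32.9 to 71.1). Both started from fewer than 35 normalized counts, and most of the *TBX2* rise came after 8-9ss, unlike that of *PTPRZ1*, which was already under way.

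*SMOC1* (XLOC_013146) encodes a secreted matrix protein that antagonizes BMP, and its normalized counts were 283 at 5-6ss, 3880.4 at 8-9ss and 6914 at 11-12ss, 24.4-fold (95% interval 21.5 to 27.9). *SOX10* (XLOC_000335), a SOXE factor of the otic placode and of the neural crest, rose over the same interval from 453 through 3334 to 10329, 22.8-fold (95% interval 20.6 to 25.3). These are the most abundant of the 15 named genes that rose most, and *SMOC1* had covered 81.9% of its log2 change by 8-9ss against 63.8% for *SOX10*. *CLCA2* (XLOC_015001), an accessory protein of chloride channels, followed the early course with 165 at 5-6ss, 2151 at 8-9ss and 3397 at 11-12ss, 20.6-fold (95% interval 17.4 to 24.5). So did the carbonic anhydrase gene *CA12* (XLOC_002391), which went from 128 to 1511 and 2249, 17.6-fold (95% interval 14.5 to 21.5). *FGF18* (XLOC_003816) had 69.8 at 5-6ss, 684 at 8-9ss and 1179 at 11-12ss, 16.9-fold (95% interval 13 to 22.2).

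Further matrix genes were in this group. Opticin, *OPTC* (XLOC_009124), a small leucine-rich proteoglycan, went from 18.6 to 576 (30.9-fold, interval 18.9 to 54.4). *EFEMP1* (XLOC_010526), a fibulin, rose late, with 9.31 at 5-6ss, 14.5 at 8-9ss and 334 at 11-12ss, 35.9-fold (95% interval 18 to 83.7). The matrilin gene *MATN4* (XLOC_007572) stood at 43.1 at 5-6ss, 254 at 8-9ss and 1015 at 11-12ss, 23.6-fold (95% interval 17 to 33.6). The summed markers of paraxial and head mesoderm, which also make matrix, stood at 1704, 1666 and 3092 normalized counts at the 3 stages. The median log2 fold change of the 13 that averaged 10 or more normalized counts was 2.14, and their part in these rises was not tested. Among the others, the mucin gene *MUC13* (XLOC_014498) was 29.4-fold (95% interval 19.9 to 45.2) higher, the sulfatase gene *ARSI* (XLOC_003719) 24.1-fold (95% interval 14.5 to 43.4), the cholesterol exporter *ABCA1* (XLOC_018452) 19.6-fold (95% interval 14.3 to 27.4) and *WSCD2* (XLOC_004515) 14.5-fold (95% interval 12.3 to 17.3). The deposited RPKM gave other sizes, 209-fold for *MUC13* and 12.3-fold for *ABCA1*. A locus without a symbol, XLOC_003690, which the count file describes as ovomucoid, was chosen after its values were seen. Its normalized counts were 128 at 5-6ss, 2755 at 8-9ss and 8186 at 11-12ss, 63.9-fold (95% interval 53 to 77.9).

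**Figure D2:**
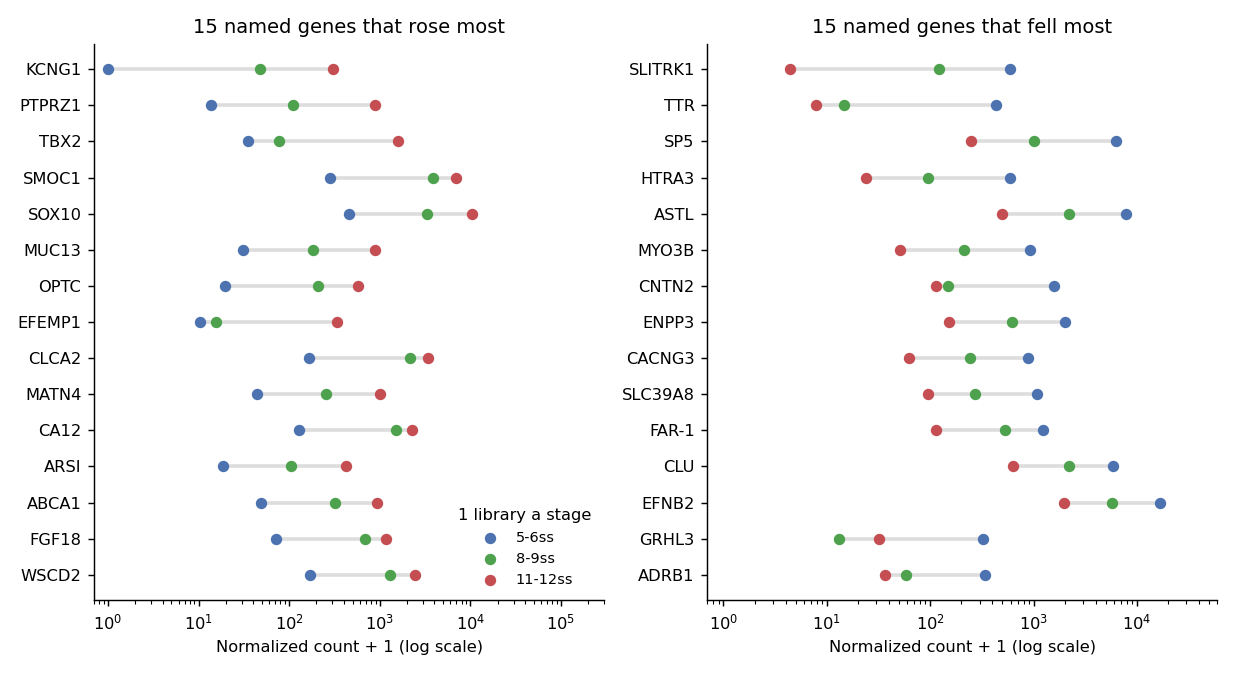
Normalized count plus 1 (log scale) at 5-6ss (blue), 8-9ss (green) and 11-12ss (red) for the 15 named genes that rose most and the 15 that fell most, ranked by the end of the counting interval nearest to no change, 1 library a stage. The 8-9ss point lies between the others for each gene but *GRHL3*, whose 8-9ss value is the lowest.

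The genes that fell most include adhesion, signalling and secreted proteins, and a Wnt-responsive transcription factor. *SLITRK1* (XLOC_000953), a transmembrane protein of neuronal membranes, had 595 at 5-6ss, 119 at 8-9ss and 3.44 at 11-12ss, a fall of 173-fold (95% interval 67.2 to 638) that rests on 4 counts at 11-12ss. *SP5* (XLOC_014424), a zinc finger factor and known target of Wnt signalling, declined at each stage from 6298 through 1008 to 247, 25.5-fold (95% interval 22.7 to 28.9). Its neighbour *MYO3B* (XLOC_014425), an unconventional myosin, followed with 927 at 5-6ss, 211 at 8-9ss and 49.8 at 11-12ss, 18.6-fold (95% interval 14.2 to 24.7). The libraries were made with a kit that does not mark the strand, so reads of overlapping or adjoining genes cannot be told apart.

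*TTR* (XLOC_006515), transthyretin, a carrier of thyroid hormone made by endoderm and liver, had 434 at 5-6ss, 13.7 at 8-9ss and 6.87 at 11-12ss, 63.2-fold (95% interval 31.7 to 147), with nearly all of the drop by 8-9ss, and 40.3-fold in the deposited RPKM. The summed endoderm markers, *TTR* among them, fell over the same time from 3473 to 1111 and then 1056 normalized counts, and their part in the change was not tested. *CNTN2* (XLOC_009053), a contactin of axons, also fell early, from 1579.8 to 148 and then 113 (13.9-fold, interval 11.6 to 16.8). By contrast, the metalloprotease gene *ASTL* (XLOC_012603) declined evenly, with 7899 at 5-6ss, 2184 at 8-9ss and 489 at 11-12ss, 16.2-fold (95% interval 14.8 to 17.6). *EFNB2* (XLOC_000930), the Eph ligand ephrin-B2, stood at 16593 at 5-6ss, 5768 at 8-9ss and 1972 at 11-12ss, 8.41-fold (95% interval 8.05 to 8.8). Clusterin, *CLU* (XLOC_010469), a secreted chaperone, went from 5830.1 to 624 (9.34-fold, interval 8.64 to 10.1). The remaining members were the serine protease gene *HTRA3* (XLOC_011692), 25.5-fold (95% interval 17.4 to 39.2) lower, the ectonucleotidase gene *ENPP3* (XLOC_010882), 13.2-fold (95% interval 11.3 to 15.6), the calcium channel subunit *CACNG3* (XLOC_004085), 14.4-fold (95% interval 11.3 to 18.6), the zinc importer *SLC39A8* (XLOC_012169), 11.5-fold (95% interval 9.45 to 14.2), *FAR-1* (XLOC_003372), 10.8-fold (95% interval 8.99 to 13), and the adrenergic receptor *ADRB1* (XLOC_008284), 9.59-fold (95% interval 6.9 to 13.6). A second locus named *ADRB1* did not pass the expression levels. *POUV* (XLOC_005088), the chick relative of the pluripotency factor Oct4, is outside these 15 and was chosen after its values were seen. It fell from 10798 through 3961 to 1499.8, 7.2-fold (95% interval 6.84 to 7.58).

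Among transcription factors of the otic placode, rises outnumbered falls. Of 45 listed otic factors with a locus, 40 passed the expression levels, 16 rose and 5 fell, and the median log2 fold change of the 44 members that averaged 10 or more normalized counts was 0.44, against -0.0013 over all 13633 such loci. Other list medians are also over members with that average. The HMX homeobox genes mark the otic territory. *SOHO-1* (XLOC_012288) had 471 at 5-6ss, 2103 at 8-9ss and 4705 at 11-12ss, 9.98-fold (95% interval 9.02 to 11.1). Its neighbour *HMX1* (XLOC_012289) stood at 33.8 at 5-6ss, 191 at 8-9ss and 547 at 11-12ss, 16.2-fold (95% interval 11.2 to 24.4). Neither *HMX3* nor *HMX2* reached the levels, with 0 counts each at 5-6ss, 10 and 9 counts at 8-9ss, and 61 and 51 at 11-12ss. The HMX genes thus had their highest value at 11-12ss on each of the 4 loci.

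*EYA1* (XLOC_007343) and *EYA4* (XLOC_010876) encode phosphatases that act as transcriptional co-factors in sensory placodes. *EYA1* went from 552 through 868.0 to 2085, 3.78-fold (95% interval 3.42 to 4.18), and *EYA4* from 623 through 1081 to 1764, 2.83-fold (95% interval 2.57 to 3.12). *SIX4*, a homeodomain partner of these proteins, was not called (1.42-fold). *EYA2*, an early placodal member of the family, was 1.26-fold lower and was not called.

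*PAX2* (XLOC_013833), by whose domain the tissue was dissected, was abundant in OEPs already and rose late, with 4569 at 5-6ss, 4856 at 8-9ss and 8138 at 11-12ss, 1.78-fold (95% interval 1.72 to 1.85). Per length its level was 88.6 RPKM at 5-6ss and 172 RPKM at 11-12ss. *LMX1A* (XLOC_014602), a LIM homeobox factor of the otic epithelium, had changed mostly by 8-9ss, with 1373 at 5-6ss, 3162 at 8-9ss and 3498 at 11-12ss, 2.55-fold (95% interval 2.39 to 2.72). The zinc finger gene *ZBTB16* (XLOC_008738) took the same early course, from 4673 through 8749.6 to 9757, 2.09-fold (95% interval 2.01 to 2.17). *SOX2* (XLOC_015570), a SOXB1 factor of neurosensory cells, was likewise early, at 228 at 5-6ss, 873 at 8-9ss and 1023 at 11-12ss, 4.48-fold (95% interval 3.85 to 5.24). In contrast, *TBX3* (XLOC_004632), the T-box relative of *TBX2*, rose late, with 348 at 5-6ss, 393 at 8-9ss and 2126 at 11-12ss, 6.11-fold (95% interval 5.41 to 6.91). *ZFHX3* (1.82-fold) and *LMX1B* (1.76-fold) were late too, whereas *ZNF521* (1.96-fold) and *RERE* (1.88-fold), a nuclear corepressor, changed over both intervals.

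Falls were seen in 5 otic factors. *GHOX-7* (XLOC_011682), the chick *MSX1*, a homeobox factor of border and non-neural ectoderm, went from 2123 through 767 to 455, 4.66-fold (95% interval 4.23 to 5.15). *OTX2* (XLOC_012857), a regulator of anterior identity, had 1354 at 5-6ss, 222 at 8-9ss and 325 at 11-12ss, 4.17-fold (95% interval 3.71 to 4.7). *GBX2* (XLOC_014037), a homeobox factor of the posterior placodal territory, fell late, with 10451 at 5-6ss, 8711 at 8-9ss and 3602 at 11-12ss, 2.9-fold (95% interval 2.8 to 3.01). *DLX6* (2.29-fold, interval 2.13 to 2.45) and *SALL1* (2.05-fold, interval 1.98 to 2.12) also fell. Several well known otic regulators moved by less than 1.5-fold in either direction. *GATA3* had 8494 at 5-6ss, 11535 at 8-9ss and 6361 at 11-12ss and was 1.34-fold lower, *SOX8* was 1.37-fold higher, *DLX3* 1.34-fold higher, *DLX5* 1.31-fold lower, *ETV4* 1.31-fold higher and *SOX13* 1.16-fold lower. *GATA3* and *SOX13* were highest at 8-9ss, above both of their end values.

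**Figure D3:**
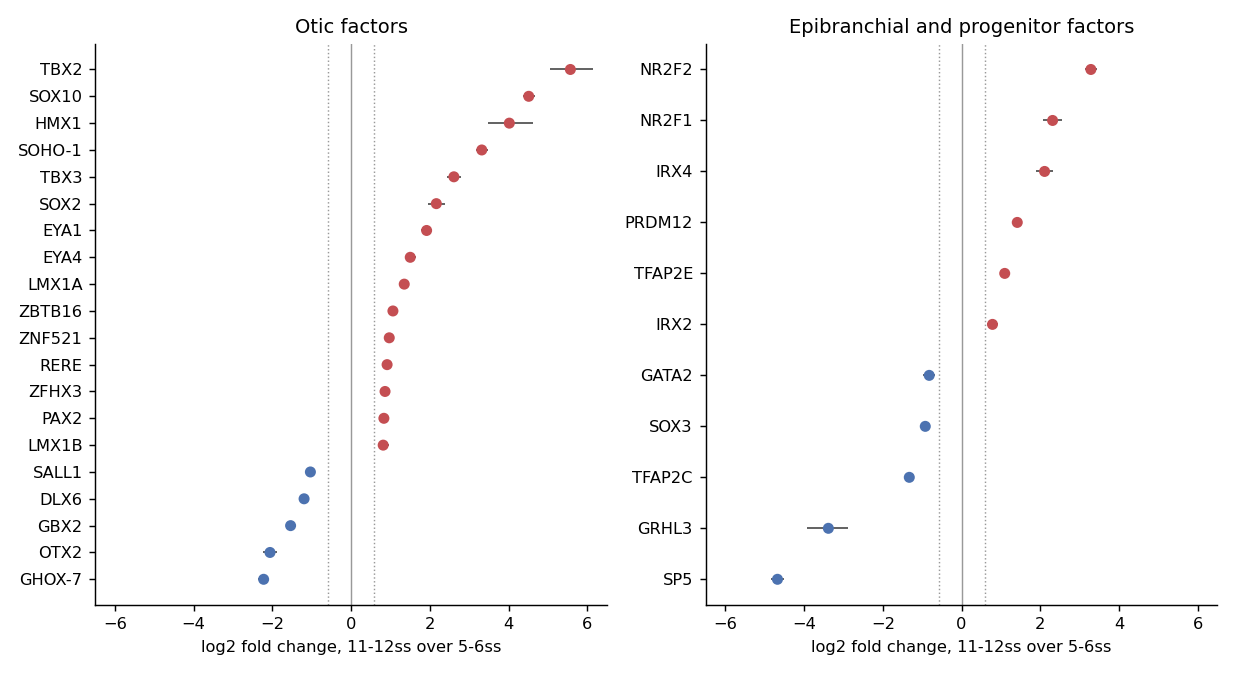
log2 fold change (11-12ss over 5-6ss) of called members of the lists of otic factors (left) and of epibranchial and progenitor factors (right) that the text names, 1 library a stage. Bars are 95% counting intervals, the solid line marks no change and the dotted lines 1.5-fold, and among the otic factors *TBX2* and *SOX10* lie farthest to the right and *GHOX-7* farthest to the left.

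Factors of the wider progenitor domain and of the epibranchial placodes moved both ways. Of 34 with a locus, 19 passed the levels, 6 rose and 5 fell, and their median log2 fold change was -0.0065. The orphan nuclear receptors of the COUP-TF family rose most. *NR2F2* (XLOC_002505) had 403 at 5-6ss, 1240.0 at 8-9ss and 3926 at 11-12ss, 9.75-fold (95% interval 8.74 to 10.9), and *NR2F1* (XLOC_018464) 183 at 5-6ss, 498 at 8-9ss and 908 at 11-12ss, 4.97-fold (95% interval 4.2 to 5.91). *PRDM12* (XLOC_004994), a PR domain factor of sensory progenitors, rose as well, with 2481 at 5-6ss, 4843 at 8-9ss and 6618 at 11-12ss, 2.67-fold (95% interval 2.54 to 2.8). *TFAP2E* (2.14-fold, interval 2.01 to 2.27) and the Iroquois genes *IRX4* (4.32-fold, interval 3.71 to 5.04) and *IRX2* (1.72-fold, interval 1.57 to 1.9) also rose, *IRX4* by 23.1-fold in the deposited RPKM. *VGLL2*, a cofactor of TEAD proteins, went from 75.7 to 238 and stayed under the count level. By in situ hybridization at placode stages the study found *NR2F2* and *VGLL2* in epibranchial cells and not in the otic placode. The part of epibranchial cells in the rise of *NR2F2* was not tested.

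Besides *SP5*, the falls were in factors of non-neural ectoderm and early placodes. *GRHL3* (XLOC_008430), a regulator of epidermal differentiation, had 322 at 5-6ss, 12.2 at 8-9ss and 30.9 at 11-12ss, 10.4-fold (95% interval 7.35 to 15.2), with 16 counts at 8-9ss and 36 at 11-12ss. *TFAP2C* (XLOC_007882), an AP-2 factor of surface ectoderm, went from 5583 through 2786 to 2226, 2.51-fold (95% interval 2.39 to 2.63). *SOX3* (XLOC_011284), a SOXB1 factor of progenitors that is later kept in epibranchial cells, was 1.89-fold (95% interval 1.83 to 1.96) lower, all of it after 8-9ss, when it stood at 8922. *GATA2* (1.77-fold, interval 1.59 to 1.96) had its lowest value at 8-9ss. *FOXI2* was alike at both ends, 10491 and 10839.6, but stood at 5318 at 8-9ss. *BLIMP-1* (*PRDM1*), 1.22-fold higher, and *TFAP2A*, 1.15-fold lower, were not called.

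Several FGF ligands rose while the receptor *FGFR2* fell. FGFs are secreted factors that bind receptor tyrosine kinases and induce feedback inhibitors of the SPRY, SPRED and DUSP families. Of 11 listed ligands with a locus 4 passed the levels, and these 4 rose. A ligand low at 5-6ss, such as *FGF18* or *FGF10*, could pass the levels only by rising. The 9 ligands that averaged 10 or more normalized counts had log2 fold changes from -1.64 to 4.08, with a median of 1.17. *FGF10* (XLOC_018237), which acts in inner ear morphogenesis, followed *FGF18* with 92 at 5-6ss, 478 at 8-9ss and 694 at 11-12ss, 7.55-fold (95% interval 5.98 to 9.63). *FGF8* (XLOC_013621) was highest at 8-9ss, at 579 at 5-6ss, 1778 at 8-9ss and 1299 at 11-12ss, 2.24-fold (95% interval 2.03 to 2.49). *FGF12*, an intracellular member of the family, was 1.9-fold (95% interval 1.72 to 2.09) higher. *FGF3* had 95.5 at 5-6ss, 151 at 8-9ss and 335 at 11-12ss (3.51-fold) and *FGF19* was 2.81-fold higher, neither past both levels at 11-12ss.

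Of 5 FGF receptors, *FGFR2* (XLOC_013974) fell, from 2187 through 701 to 673, 3.25-fold (95% interval 2.99 to 3.54). *FGFRL1*, a receptor without a kinase domain, rose late (3.78-fold, interval 3.04 to 4.74), and *FGFR1* hardly moved, at 16777 and 17613. Among 13 targets and inhibitors with a locus, *SPRED2* rose (1.87-fold, interval 1.74 to 2.0), while *DUSP5* (2.34-fold, interval 2.01 to 2.73) and the ETS factor *ER81*, or *ETV1* (1.73-fold, interval 1.61 to 1.86), fell. *ETV5*, another FGF target, stood at 6526 at 5-6ss, 5929.7 at 8-9ss and 6606 at 11-12ss and was not called.

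Wnt pathway members split by role less clearly, with 10 higher and 8 lower of 63 with a locus and 42 past the levels. The median log2 fold change was -0.10 over the 54 members that averaged 10 or more normalized counts and turned to 0.10 over the 42 past the levels. Wnt proteins signal through Frizzled receptors with LRP co-receptors, R-spondins and LGR receptors enhance this, and SFRPs, NOTUM and APCDD1 dampen it. *RSPO3* (XLOC_010890) rose late, from 57 through 92.8 to 542, 9.5-fold (95% interval 7.1 to 13). *LGR5* (XLOC_000199), a receptor of R-spondins, rose early, with 208 at 5-6ss, 989.7 at 8-9ss and 832 at 11-12ss, 3.99-fold (95% interval 3.4 to 4.7). *FZD1* (2.77-fold, interval 2.62 to 2.94), *FZD4* (3.56-fold, interval 3.13 to 4.07) and *LRP6* (1.74-fold, interval 1.52 to 1.99) rose, whereas *FZD10* (3.33-fold, interval 2.71 to 4.12), *FZD7* (1.96-fold, interval 1.92 to 2.01) and the Wnt5a receptor *ROR1* (1.56-fold, interval 1.46 to 1.67) fell, the last by less than 1.5-fold in RPKM. *FZD7* went from 20748 to 10579.

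Secreted inhibitors and their receptors also moved both ways. *KREMEN1* (XLOC_004743), a DKK receptor, went from 236 through 1025 to 1555, 6.58-fold (95% interval 5.69 to 7.64). *SFRP2* (XLOC_011955), with 3226 at 5-6ss, 5112 at 8-9ss and 10062 at 11-12ss, was 3.12-fold (95% interval 2.99 to 3.25) higher, and *FRZB* was 1.58-fold (95% interval 1.5 to 1.66) higher. *NOTUM* (2.26-fold, interval 2.06 to 2.48) and *APCDD1* (2.21-fold, interval 1.98 to 2.46) fell. Of the feedback targets, *AXIN2* fell with *SP5*, from 2572 through 1451 to 1540.2, 1.67-fold (95% interval 1.57 to 1.78), while *LEF-1* was not called (1.08-fold). *NOTUM*, *APCDD1* and *AXIN2* are widely used as readouts of Wnt activity, and these 3 had completed most of their fall by 8-9ss. The listed effectors and targets did not move as a whole. Of 16 past the levels 2 rose and 2 fell, with a median log2 fold change of 0.04, and Wnt activity itself was not tested. *MYC* (2.53-fold, interval 2.21 to 2.89) and *DVL1* (1.53-fold, interval 1.34 to 1.76) rose. Of the 17 Wnt ligands with a locus 3 passed the levels, among them *WNT4*, which fell (1.79-fold, interval 1.51 to 2.11), and *WNT5A*, which was not called (1.42-fold).

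Among BMP and TGF-beta members, *BMP4* and *BMP5* fell while the secreted antagonists *SMOC1*, *NBL1* and *FST* rose. Of 56 with a locus, 34 passed the levels, 8 rose and 7 fell, and the median log2 fold change was 0.14. Each of these roles had members that went the other way. Of 7 ligands past the levels 1 rose and 3 fell, and of 7 secreted inhibitors 4 rose and 1 fell. Over the 11 ligands that averaged 10 or more normalized counts the median log2 fold change was -0.28, with a range from -3.31 to 3.02. For the 12 such inhibitors it was 0.64, with a range from -2.42 to 4.61. *BMP4* (XLOC_013397), a ligand of non-neural ectoderm, went from 2631 through 933 to 1192, 2.21-fold (95% interval 2.06 to 2.36). *BMP5* (2.26-fold, interval 1.95 to 2.62) and *TGFB3* (1.51-fold, interval 1.42 to 1.61) fell too, as did the receptor *BMPR1B* (1.56-fold, interval 1.31 to 1.86) and the pseudoreceptor *BAMBI* (2.35-fold, interval 1.98 to 2.81), whereas *BMP7* was not called (1.22-fold). The call of *TGFB3* was lost with total counts and with RPKM (1.49-fold). Secreted antagonists besides *SMOC1* were *NBL1* (XLOC_008002), a DAN family protein, with 607 at 5-6ss, 1748 at 8-9ss and 4535 at 11-12ss, 7.48-fold (95% interval 6.83 to 8.2), and *FST*, follistatin, which was 3.15-fold (95% interval 2.6 to 3.84) higher and rose late. The TGF-beta receptor *TGFBR2* (7.44-fold, interval 5.3 to 10.7), the ligand *CVG1*, or chick Vg1 (2.32-fold, interval 2.15 to 2.5), *SMAD3* (1.69-fold, interval 1.51 to 1.88) and *ID2*, a BMP-responsive helix-loop-helix factor (2.16-fold, interval 2.06 to 2.25), rose. The latent TGF-beta binding proteins went opposite ways, *LTBP1* higher (2.29-fold, interval 2.16 to 2.42) and *LTBP2* lower (3.4-fold, interval 3.12 to 3.71).

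The Notch pathway, in which ligands on one cell activate receptors on the next, had 2 ligands lower and 1 receptor higher. *DLL1* went from 1135 to 576 (1.97-fold lower, interval 1.79 to 2.18) and *JAG2* was 1.67-fold (95% interval 1.57 to 1.79) lower, while *JAG1* was not called (1.23-fold higher). *NOTCH1* (XLOC_005032) rose after 8-9ss, with 3123 at 5-6ss, 3489 at 8-9ss and 5908 at 11-12ss, 1.89-fold (95% interval 1.81 to 1.98). *NRARP*, a feedback target of Notch, rose with it (2.07-fold, interval 1.77 to 2.44), as did the coactivator *MAML3* (1.93-fold, interval 1.74 to 2.16). Of the targets, *HEY1*, *HES1* and *HES5* were not called and were highest at 8-9ss. *HEY1* had 4115 at 5-6ss, 7546 at 8-9ss and 5746 at 11-12ss, *HES1* 945 at 5-6ss, 1764 at 8-9ss and 1234 at 11-12ss and *HES5* 79.2 at 5-6ss, 208 at 8-9ss and 79.9 at 11-12ss. In all 3 rose and 2 fell of 31 Notch members with a locus, 21 of them past the levels.

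Several Hedgehog and retinoic acid receptors rose, as did 1 retinoic acid binding protein gene, *CRABP-I*. In the Hedgehog pathway *PTCH1*, the receptor, and *GLI1*, a transcription factor, are both induced by the signal. *GLI1* (XLOC_017326) had 127 at 5-6ss, 198 at 8-9ss and 488 at 11-12ss, 3.85-fold (95% interval 3.13 to 4.76), *PTCH1* was 1.64-fold (95% interval 1.47 to 1.84) higher and the co-receptor *BOC* 1.86-fold (95% interval 1.66 to 2.09). All 3 changed mainly after 8-9ss, and they are 3 of 13 members with a locus, 9 of them past the levels, with 0 lower. *GLI2* stands on 2 loci, of which 1 was called higher (1.9-fold, interval 1.79 to 2.03) while the locus counted in the list was not.

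Retinoic acid is made from retinol by dehydrogenases, enters the nucleus on binding proteins and acts through RAR and RXR receptors. Of 16 members with a locus, 10 passed the levels, 5 rose and 2 fell, and the median log2 fold change was 0.0066. *CRABP-I* (XLOC_002641), a cellular retinoic acid binding protein, had 204 at 5-6ss, 1329 at 8-9ss and 2884 at 11-12ss, 14.2-fold (95% interval 12.2 to 16.6). The more abundant *CRABP2*, of the same kind, was not called, with 9089 at 5-6ss, 9663 at 8-9ss and 8942 at 11-12ss. The retinol transporter *STRA6* (2.04-fold, interval 1.94 to 2.13), *RXRG* (3.08-fold, interval 2.57 to 3.72), *RXRA* (1.63-fold, interval 1.46 to 1.81) and *RARB* (1.56-fold (95% interval 1.43 to 1.7), and 1.46-fold in RPKM) rose. *ALDH6* (XLOC_002519), described in the count file as the retinal dehydrogenase ALDH1A3, had 17.5 at 5-6ss, 161 at 8-9ss and 395 at 11-12ss, 22.6-fold (95% interval 13.6 to 40.8), and at 3.54 RPKM did not pass the RPKM level. Both genes that fell act on retinal and retinol, namely *DHRS3* (XLOC_008013), which went from 8114 through 7033 to 2598, 3.12-fold (95% interval 2.99 to 3.26), and *RDH10*, which was 1.73-fold (95% interval 1.49 to 2.0) lower. The degrading enzymes *CYP26A1* (1.07-fold lower) and *CYP26C1* (1.02-fold lower) were not called, and *CYP26B1* (2.61-fold higher, with 149 at 11-12ss) stayed under the count level. Among 21 HOX genes with a locus, *HOXA2* passed the levels and rose (1.54-fold, interval 1.37 to 1.72).

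**Figure D4:**
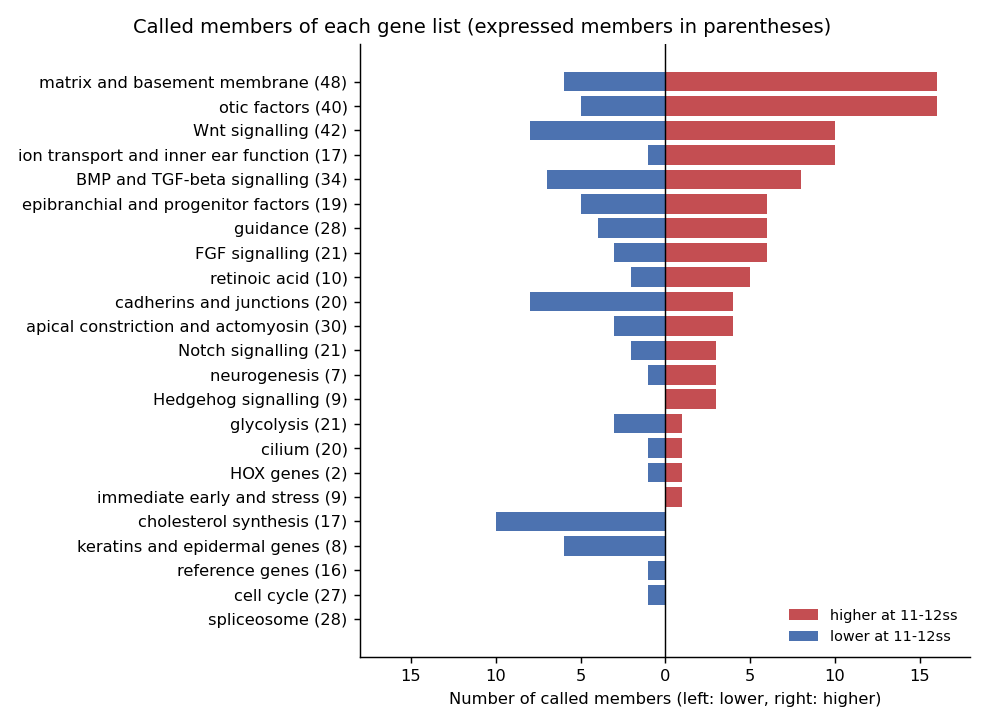
Number of members called higher (red, to the right) and lower (blue, to the left) at 11-12ss in each gene list, with the number of expressed members in parentheses. Matrix genes and otic factors had 16 higher members each, and cholesterol synthesis with 10 and keratins with 6 had lower members alone.

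Extracellular matrix genes rose in number, with collagens and integrins in the lead. Of 78 members with a locus, 48 passed the levels, 16 rose and 6 fell, and the median log2 fold change was 0.28. Among 23 collagen genes with a locus 7 rose. *COL2A1* (XLOC_016977), the fibrillar collagen of notochord, cartilage and early epithelia, had 17626 at 5-6ss, 28368 at 8-9ss and 56257 at 11-12ss, 3.19-fold (95% interval 3.14 to 3.25). Its level per length went from 121 to 436 RPKM. The fibrillar collagens *COL5A1* (7.03-fold, interval 6.45 to 7.67), *COL11A1* (5.99-fold, interval 5.28 to 6.81), *COL5A2* (5.12-fold, interval 4.76 to 5.5) and *COL27A1* (4.94-fold, interval 4.51 to 5.41) rose more in fold, and *COL9A2* (1.94-fold, interval 1.89 to 2.0) and *COL1A2* (2.09-fold, interval 1.96 to 2.24) less. *COL9A3* stands on 2 loci that went opposite ways, one called lower (3.02-fold, interval 2.58 to 3.54) and one under the levels, so that its direction is uncertain.

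Of the integrins, receptors that tie cells to the matrix, *ITGB3* (XLOC_009320) stood at 8467 at 5-6ss, 19688 at 8-9ss and 18091 at 11-12ss, 2.14-fold (95% interval 2.08 to 2.19). *ITGA4* (XLOC_014389), a fibronectin receptor chain, had 1955 at 5-6ss, 4597 at 8-9ss and 5890.1 at 11-12ss, 3.01-fold (95% interval 2.86 to 3.18), and *ITGA9* (2.14-fold, interval 1.84 to 2.5) and *ITGAV* (1.65-fold, interval 1.42 to 1.92) rose as well, *ITGAV* by 1.46-fold in RPKM. *TNC*, tenascin C (2.74-fold, interval 2.52 to 3.0), *LUM*, lumican (12.7-fold, interval 8.37 to 20.3), and the basement membrane protein gene *FREM2* (2.1-fold, interval 1.91 to 2.31) rose. Fibronectin went the other way. *FN1* (XLOC_014309) had 93461 at 5-6ss, 46311 at 8-9ss and 38510.2 at 11-12ss, 2.43-fold (95% interval 2.4 to 2.46), with most of the drop by 8-9ss. *HAPLN1*, a hyaluronan link protein, fell with it (3.71-fold, interval 3.48 to 3.95), as did the hyaluronan synthase *HAS2* (1.57-fold, interval 1.52 to 1.63), *SPOCK3* (2.71-fold, interval 2.45 to 3.0) and *FBLN2* (1.53-fold, interval 1.49 to 1.58).

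Many genes of epithelial junctions and keratins fell while N-cadherin rose. *CDH2* (XLOC_007285), N-cadherin, the cadherin of neural and placodal epithelia, had 579 at 5-6ss, 1765 at 8-9ss and 3833 at 11-12ss, 6.62-fold (95% interval 6.04 to 7.28). *CDH3* (XLOC_002988), a classical cadherin, went from 95921 through 74348 to 60182, 1.59-fold (95% interval 1.58 to 1.61). In RPKM, which takes length into account, *CDH3* still stood at 709 at 11-12ss against 41.4 for *CDH2*. The tight junction genes *CGN* (2.68-fold, interval 2.56 to 2.82), *TJP1* (1.58-fold, interval 1.52 to 1.64), *TJP3* (1.57-fold, interval 1.41 to 1.74) and *CLDN1* (1.53-fold, interval 1.51 to 1.55) fell. So did the desmosomal genes *PKP2* (2.06-fold, interval 1.81 to 2.36) and *JUP* (1.67-fold, interval 1.63 to 1.71) and the protocadherin *PCDH1* (1.73-fold, interval 1.67 to 1.78), whereas *DSG2* (1.61-fold, interval 1.51 to 1.71), *CDH11* (1.62-fold, interval 1.51 to 1.74) and *PCDH19* (1.84-fold, interval 1.72 to 1.96) rose. For *CGN* the deposited RPKM fell far less, from 110.5 to 102. In all, 4 rose and 8 fell of 33 with a locus, 20 past the levels.

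Keratins are the intermediate filaments of simple and stratified epithelia. *KRT19* (XLOC_009516) had 19682 at 5-6ss, 10749 at 8-9ss and 6372 at 11-12ss, 3.09-fold (95% interval 3.01 to 3.17). *KRT8* (XLOC_017419) went from 25345 through 18754 to 12282, 2.06-fold (95% interval 2.02 to 2.11), and its partner *KRT18* was 2.72-fold (95% interval 2.55 to 2.9) lower. *KRT14* (1.69-fold, interval 1.55 to 1.84) and a locus named *KRT7* (XLOC_017453, 2.66-fold, interval 2.54 to 2.79) fell too, *KRT14* by just under 1.5-fold in RPKM. Keratin genes are similar to each other, and how the counting split shared reads is not given in the sources used here. With *GRHL3*, 6 of 13 epidermal genes with a locus fell and 0 rose, at a median log2 fold change of -1.10.

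Enzymes of cholesterol synthesis fell together by modest amounts. All 17 with a locus passed the levels, 10 fell and 0 rose, and the median log2 fold change was -0.60. *MVD* (XLOC_003177), which makes isopentenyl diphosphate, had 6689 at 5-6ss, 4796 at 8-9ss and 3275 at 11-12ss, 2.04-fold (95% interval 1.96 to 2.13). *SC4MOL*, a sterol methyl oxidase, had 5225 at 5-6ss, 3038 at 8-9ss and 2557 at 11-12ss, 2.04-fold (95% interval 1.95 to 2.14). *CYP51A1* (1.9-fold, interval 1.83 to 1.97), *FDFT1* (1.85-fold, interval 1.79 to 1.93), *SQLE* (1.78-fold, interval 1.71 to 1.86) and *LSS* (1.73-fold, interval 1.67 to 1.8) followed, all of them steps from squalene onwards or the step that makes it. *HMGCS1* was 1.35-fold lower and was not called. Of the 10 that fell, 6 had covered at least 66.7% of the log2 change by 8-9ss.

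Glycolysis as a whole moved little. Of 22 genes with a locus 1 rose and 3 fell, and the median log2 fold change was -0.07. The glucose transporter *SLC2A3* (XLOC_000534) fell mostly after 8-9ss, with 7054 at 5-6ss, 4969 at 8-9ss and 1887 at 11-12ss, 3.74-fold (95% interval 3.56 to 3.93), whereas *LDHA*, lactate dehydrogenase, rose (1.63-fold, interval 1.51 to 1.77).

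Some genes that serve ion transport and the later inner ear were already rising. Of 39 with a locus, 17 passed the levels, 10 rose and 1 fell, and 5 had no read at either end. The median log2 fold change was 0.12 over the 30 members that averaged 10 or more normalized counts, with a range from -4.28 to 4.36. It was 1.38 over the 17 past the levels, which members low at 5-6ss, such as *USH1C* and *CALB2*, could pass only by rising. *USH1C* (XLOC_013002), harmonin, a scaffold of hair cell stereocilia, had 86.1 at 5-6ss, 400.1 at 8-9ss and 1024 at 11-12ss, 11.9-fold (95% interval 9.39 to 15.2). *OTOG* (XLOC_012510), otogelin, a protein of the acellular membranes over the sensory epithelia, went from 279 through 963 to 1526, 5.46-fold (95% interval 4.77 to 6.27). *CALB2* (XLOC_003053), calretinin, a calcium buffer of neurons and hair cells, stood apart in timing, with 97.8 at 5-6ss, 61.6 at 8-9ss and 586 at 11-12ss, 5.99-fold (95% interval 4.77 to 7.61). The bicarbonate transporter *SLC4A4* (5.1-fold, interval 4.23 to 6.18), the actin bundler *ESPN* (4.07-fold, interval 3.43 to 4.86), the gap junction gene *GJB6* (3.61-fold, interval 2.96 to 4.43), carbonic anhydrase *CA2* (2.6-fold, interval 2.11 to 3.23) and the tip link gene *PCDH15* (1.66-fold, interval 1.4 to 1.96) rose. *ATP1B1*, a sodium pump subunit, fell (1.53-fold, interval 1.42 to 1.64). *PCDH15* and *SLC4A4* stayed near the RPKM level at 11-12ss, at 4.06 and 4.02, and the RPKM of *PCDH15* rose 1.42-fold.

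Axon guidance genes moved both ways, with Eph receptors among the rises and the ligand *EFNB2* as the largest fall. *EPHA4* (XLOC_015476), an Eph receptor of the hindbrain and otic region, had 2780.0 at 5-6ss, 4904 at 8-9ss and 11742 at 11-12ss, 4.22-fold (95% interval 4.04 to 4.41). *EPHA5* (XLOC_012118) had 231 at 5-6ss, 692 at 8-9ss and 2049 at 11-12ss, 8.89-fold (95% interval 7.69 to 10.3). *SEMA3D* (3.7-fold, interval 3.48 to 3.94), *SEMA3G* (1.97-fold, interval 1.83 to 2.13), *NRP2* (3.22-fold, interval 2.81 to 3.69) and *ROBO1* (1.81-fold, interval 1.72 to 1.9) rose, while *SEMA3A* (1.8-fold, interval 1.63 to 1.98), *PLXNA2* (2.21-fold, interval 2.11 to 2.3) and *EPHA1* (1.98-fold, interval 1.77 to 2.22) fell, so that 6 rose and 4 fell of 38 with a locus, 28 past the levels. *SEMA3D* and *SEMA3A* lie next to each other and moved in opposite directions.

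Early neuronal genes were few. Of 17 with a locus 7 passed the levels. *NEFL* (XLOC_008197), neurofilament light chain, had 155 at 5-6ss, 966 at 8-9ss and 1085 at 11-12ss, 7.01-fold (95% interval 5.86 to 8.44). *ISL1*, a LIM homeobox factor of sensory neurons, had 276 at 5-6ss, 390.2 at 8-9ss and 798 at 11-12ss, 2.89-fold (95% interval 2.51 to 3.35), and the RNA binding protein gene *ELAVL4* was 1.96-fold (95% interval 1.68 to 2.3) higher. *CNTN2* fell, as described above.

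Invagination bends the epithelium through actomyosin at its basal and apical sides. Of 36 genes of this machinery with a locus, 30 passed the levels, 4 rose and 3 fell, a mixed picture with a median log2 fold change of 0.16. The membrane-actin linkers *EZR* (XLOC_010854), at 3462 at 5-6ss, 4959.8 at 8-9ss and 7144 at 11-12ss (2.06-fold, interval 1.98 to 2.15), and *RDX* (1.57-fold, interval 1.49 to 1.66) rose. So did *LMO7* (1.67-fold, interval 1.49 to 1.88) and the guanine nucleotide exchange factor *ARHGEF12* (1.52-fold, interval 1.42 to 1.63). *SHROOM3*, an actin-binding protein of apical junctions, fell from 685 to 375 (1.82-fold, interval 1.61 to 2.07), as did *CELSR1* (1.53-fold, interval 1.43 to 1.63) and *CNN2* (2.88-fold, interval 2.65 to 3.13). In the deposited RPKM *RDX* was 1.39-fold, *ARHGEF12* 1.38-fold and *LMO7* 1.11-fold higher and *CELSR1* 1.45-fold lower, none past 1.5-fold, so that 1 of the 4 rises remained. *MYH9*, the abundant nonmuscle myosin heavy chain, was 1.45-fold higher and was not called.

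Housekeeping groups gave few calls. Of 28 spliceosome genes with a locus, 0 were called. *MYCN* (1.56-fold, interval 1.5 to 1.62) was the only one of 31 cell cycle genes that was called, and it fell. Of 35 cilium genes with a locus, *ODF2L* (XLOC_014692) rose, with 166 at 5-6ss, 1139.5 at 8-9ss and 1200.0 at 11-12ss, 7.21-fold (95% interval 6.06 to 8.62) and 4.73-fold in RPKM, and *RFX2* fell (2.4-fold, interval 2.11 to 2.73). Of 16 reference genes, *B2M* fell (2.62-fold, interval 2.27 to 3.02), and of 15 stress genes *HSP70* rose (2.27-fold, interval 2.2 to 2.33).

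Changes were spread over both intervals. Of the 667 loci that rose, 194 had covered at least 66.7% of their log2 change by 8-9ss and 199 no more than 33.3%, with 270 in between and 4 whose 8-9ss value lay outside the range of both ends by more than 1.5-fold. The loci that fell divided into 195, 172, 238 and 8. The median share covered by 8-9ss was 50.1% for loci that rose and 54.1% for those that fell, and 554 and 515 loci changed in one direction throughout. Among the 102 that rose over 4-fold, 26 were early, 59 in between and 16 late.

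The lists differed in this timing. All 3 Hedgehog members and 3 of 5 retinoic acid members that rose were late. Of 10 ion transport and inner ear genes that rose 5 were early, 4 in between and 0 late. The remaining 1, *CALB2*, lay outside the range of both ends at 8-9ss and rose after it, from 61.6 to 586. Of 8 Wnt members that fell 6 were early. Among the otic factors that rose, 4 were early, 7 in between and 5 late, the last including *PAX2*, *TBX2* and *TBX3*. The shares of all loci that rose, 29.1% early and 29.8% late, stand beside these small counts, which were not tested.

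**Figure D5:**
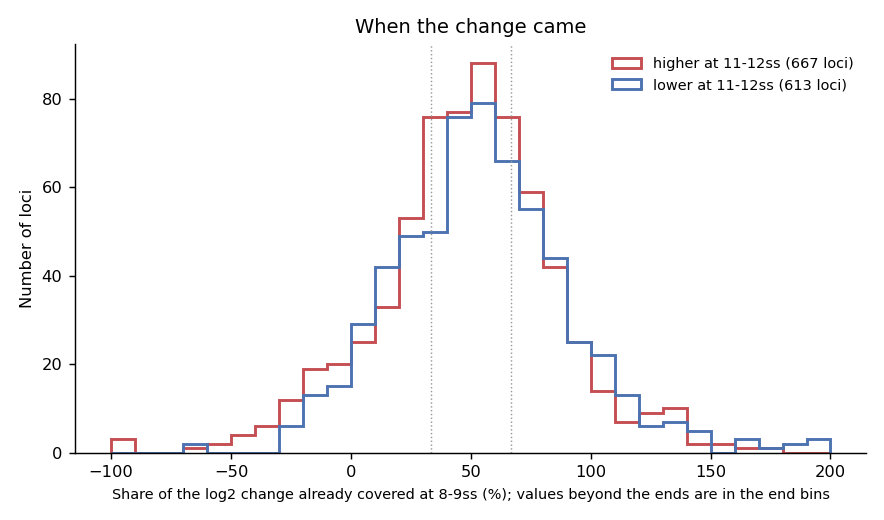
Number of loci by the share of their log2 change from 5-6ss to 11-12ss that the 8-9ss library had covered, in bins of 10 percentage points, for the 667 loci that rose (red) and the 613 that fell (blue). Dotted lines mark the limits of late (33.3%) and early (66.7%), and both distributions peak near the middle.

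Genes that rose often had neighbours that rose. Among expressed genes placed next to each other on the RefSeq chicken annotation, 98 of 563 neighbours of a gene that rose had risen too, 17.4%, against 7.99% of all expressed loci, and 4.26% had fallen. For genes that fell the shares were 16.4% lower and 5.31% higher. Each pair enters under both of its genes, so that the 98 are 49 pairs in which both rose, beside 37 in which both fell. Neighbours were sought among the 7216 expressed loci matched to RefSeq, whereas the 7.99% is over all 8350. Pairs include *SOHO-1* with *HMX1*, *USH1C* with *OTOG*, *CLCA2* with *ODF2L* and *COL24A1* (the last 4.33-fold), *OPTC* with the related proteoglycan gene *PRELP* (4.83-fold), *LMX1A* with *RXRG* and *IRX4* with *IRX2*, all higher, and *SP5* with *MYO3B*, *KRT18* with *KRT8* and *FZD10* with *PIWIL1* (5.59-fold), all lower. *PRELP*, *COL24A1* and *PIWIL1* were chosen after their values were seen. The part of reads shared between adjoining genes was not tested.

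The called loci were also looked up in the libraries that the calls did not use, without a test. In the pre-placodal region at HH6 against the whole embryo at 3ss, 31.0% of the loci that rose later were more than 1.5-fold lower, against 10% of the 8350 expressed loci (837), and 17.2% were higher, against 13.9%. Of the loci that fell, 30.0% were higher and 20.2% lower there. The median log2 fold change of HH6 over the whole embryo was -0.12 for loci that rose, 0.13 for loci that fell and 0.06 over all expressed loci. Loci that fell were also shorter, with a median effective length of 1.52 kb against 2.25 kb for those that rose and 1.97 kb for all expressed loci. Among the shortest 418 expressed loci, at most 0.428 kb long, 38 rose and 57 fell, 22.7% in all.

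Markers bear on what the tissue held. Of 18 surface ectoderm and placode markers with a locus, 17 passed the levels, and their summed normalized count went from 134657 at 5-6ss through 116232 to 106129 at 11-12ss, with log2 fold changes from -3.38 to 3.32. Paraxial and head mesoderm markers summed to 1704, 1666 and 3092. Their median log2 fold change was 2.14 over the 13 members that averaged 10 or more normalized counts, with a range from -3.49 to 4.62. *PRRX1* (60.5, 59.3 and 477), *PAX1* (48.9, 35.8 and 315) and *GGMOXR1* (*MEOX1*; 153, 232 and 499.9) rose, and 3 of the 20 with a locus, *MESP2*, *UNCX* and *HAND2*, had no read at either end. Of the 3 mesoderm markers that rose, 2 did so late and 1 in between, and of the 16 matrix genes that rose 5 were early, 6 in between and 5 late. The part of mesoderm in the matrix rises was not tested.

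Endoderm markers summed to 3473, 1111 and 1056, with *TTR*, *APOA1* (5.69-fold, interval 5.12 to 6.33) and *GATA5* (2.79-fold, interval 2.27 to 3.44) lower of 12 with a locus and *NKX2-1* without a read at either end. Blood and vessel markers summed to 1693, 2249 and 3619, with *LMO2* (1.9-fold, interval 1.73 to 2.09) the only one of 18 past the levels and *HBA1* and *SPI1* at 0. Their median log2 fold change was 1.29 (range -0.11 to 2.62), and that of the endoderm markers was -1.62 (range -5.98 to 0.52). Notochord markers, 6 with a locus, summed to 18396, 29140 and 56893, nearly all of it *COL2A1*. Neural tube markers, 17 with a locus, summed to 3331, 3877 and 4097, with *SOX2* higher and *SOX1* at 0. Neural crest markers, 13 with a locus, summed to 23426, 33575 and 41076. *SOX10* (453 to 10329) and *ITGB3* (8467 to 18091) account for the rise of this sum. The median log2 fold change was 0.05 over the 12 members that averaged 10 or more normalized counts, with a range from -2.90 to 4.51. In this list *SOX10*, *SOX5* (6.34-fold, interval 5.4 to 7.48), *RXRG* and *ITGB3* rose, whereas *SNAI2* (1.59-fold, interval 1.44 to 1.75) and *GHOX-7* fell, and *SOX10*, *SOX9* and *TFAP2A* are expressed by placodal ectoderm as well. The part of neural crest in the rise of *SOX10* was not tested.

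The W-linked gene *HINTW*, carried by female embryos alone, had 11904 at 5-6ss, 10887 at 8-9ss and 5047 at 11-12ss, 2.36-fold (95% interval 2.28 to 2.44) lower (1.45-fold in RPKM). The share of female embryos in each pool is not given in the sources used here, and its part in any other change was not tested.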

How the data were processed

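The 3 otic libraries of chick ectoderm (5-6ss, 8-9ss and 11-12ss) were compared with 1 library a stage. Per the methods, the authors aligned reads with TopHat2 to galGal4, assembled and merged transcripts with Cufflinks, and deposited counts per locus from easyRNAseq without normalization. RPKM, which the authors computed with Cuffdiff as reads per transcript length and depth, was deposited in a separate table. Libraries were sequenced as single or paired reads. Which type belongs to which library is not given in the sources used here, and a difference in read type would move counts and RPKM by locus length. Overlapping genes cannot be told apart, since the kit does not mark the strand.

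Size factors were the median of ratios over the 5-6ss and 11-12ss libraries (0.859 and 1.16), and each count was divided by them. Calls needed a fold over 1.5 and, in the higher library, a normalized count over 300 and an RPKM over 4. In a fold, a count of less than 3 was replaced by 3. Exact binomial 95% intervals cover counting error only. The 8-9ss values are printed on the same scale, and the share of the log2 change covered by 8-9ss used size factors over the 3 otic libraries. Names were found for 14045 of 18365 loci, 13983 in the deposited files and 62 in RefSeq (GRCg7b), which also gave the neighbours. A further 216 loci had an RPKM of 0 and no count. A locus was found for 830 list symbols, and the other 146 were not analysed here.

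The members and lists were chosen with earlier results of these data known, and nothing here is independent support for them. The genes named are the 15 with a symbol that rose most and the 15 that fell most by the nearer end of the interval, those the study names for its time course, up to 4 called members of each list role, small lists and called markers. Other list members are named to account for the calls of a list or to give its members that were not called. *POUV*, *HINTW*, *PRELP*, *COL24A1*, *PIWIL1* and the ovomucoid locus were chosen after their values were seen. Alternatives were size factors over 3 or 5 libraries, TMM (edgeR 4.0.16), total counts, RPKM folds, other thresholds, named loci alone and thinned counts, and, added after seeing the data, leaving out the shortest loci. The software was R 4.3.3, Python 3.11.15, scipy 1.17.1, pandas 2.3.3, matplotlib 3.10.9 and numpy 2.4.6.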

Additional observations from a re-analysis of the deposited data

How the results depend on the processing

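Scaling changed the counts of calls little. The 667 loci that rose and 613 that fell became 651 to 689 and 565 to 618 under size factors over the 3 otic or all 5 libraries, TMM, total counts and thinned counts. With folds of the deposited RPKM they became 665 and 604, of which 563 and 484 were also called by counts, and 82 of the 243 named genes with an RPKM fold moved outside their counting interval. The thresholds mattered more. Without the count level 1295 rose and 1106 fell, without either level 2701 and 2241, and with a fold over 2 only 305 and 233. Leaving out the shortest loci, an alternative chosen after seeing the data, gave 629 and 556. Medians of 30 lists shifted by -0.31 to 0.20 with RPKM folds, where 2 changed sign, and 1 changed sign with total counts and 1 with thinned counts. With RPKM folds the genes called in the actomyosin list went from 4 to 1 higher. Those in the cell cycle list went from 1 to 2 lower and in the stress list from 1 to 2 higher. Otic factors went from 16 to 18 and Wnt members from 10 to 12 higher. Matrix genes became 15 higher and 7 lower, and BMP and TGF-beta members 9 higher and 6 lower. Ion transport genes (9 higher), retinoic acid members (4 higher), surface ectoderm markers (4 higher), junction genes (7 lower) and keratins (5 lower) changed too. For *CGN*, *IRX4*, *PTPRZ1*, *MUC13*, *TTR*, *ABCA1*, *LMO7*, *ODF2L* and *HINTW* the RPKM fold departed from the count fold by over 1.5 times, and the cause was not tested. No paired analysis was possible because each stage has 1 library, and leaving out a replicate was not possible for the same reason. Depth limits the low ends of the largest folds, such as 4 counts for *SLITRK1* at 11-12ss and 0 for *KCNG1* at 5-6ss.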
